A study of Mus musculus with 12 samples.

Results

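The transcripts of the mitochondrial genome were examined in rod and whole-retina RNA of mice with a heterozygous or homozygous deletion of Shp2 aimed at rods. Every row of the deposited expression table whose gene symbol begins with mt- was taken, which gave 37 of 56748 rows. These are 13 protein genes, 2 ribosomal RNA (rRNA) genes and 22 transfer RNA (tRNA) genes. In the strand annotation 28 of the 37 are read as heavy-strand transcripts and 9 as light-strand transcripts, the latter being mt-Nd6 and 8 of the tRNA genes.

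RNA sequencing covered 12 libraries in 4 groups of 3. All mice were 2 weeks old, carried a rhodopsin-promoter Cre (i75Cre) and were homozygous for RiboTag, an Rpl22 gene that gains an HA tag after Cre recombination. The control mice, littermates called Het here, were Shp2fl/+ (genotype Shp2_Rodhet, although their titles call them wt), and the KO mice were Shp2fl/fl (Shp2_Rodko). For each genotype, RNA was taken before purification (retina) and after HA pull-down of ribosomes, a method named Translating Ribosome Affinity Purification (TRAP, here called rods). Tissue was frozen after cycloheximide perfusion, and cDNA was made from 100 ng RNA with a SMART-Seq v4 kit, which primes on poly(A) tails and keeps no strand. Whether libraries of a group came from separate mice is not stated, so the p-values measure only the spread between these libraries.

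The mitochondrial genome is a small circle copied in many molecules per cell. Both of its strands are transcribed into long RNAs, which are cut at the tRNA genes that punctuate them into mRNAs, rRNAs and tRNAs. All its protein genes encode membrane subunits of respiratory complexes I, III, IV and V, whose other subunits, and all of complex II, come from nuclear genes. Its mRNAs are translated inside the organelle by mitoribosomes, which are built from mitochondrial rRNAs and a protein set of their own, whereas Rpl22 belongs to the cytosolic ribosome. Rod inner segments are packed with mitochondria, and photoreceptors are among the heaviest users of oxygen in the body.

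The values are whole numbers that behave as read counts multiplied by 1 factor per library. Library totals were 14525527 to 14527992 in retina and 16263948 to 16265259 in rods, and the estimated reads behind them were 9979000 to 19220000 and 11890000 to 25270000. Ptpn11 (ENSMUSG00000043733), the gene for Shp2, had values of 2511, 2439 and 2431 in rods of Het mice against 1735, 2139 and 1971 in rods of KO mice, a log2 fold change of -0.26 (SE 0.09, limma adjusted p = 0.064). Its retina values, 2390, 2512 and 2125 in Het against 2205, 2147 and 2466 in KO, overlapped. The rod values of Ptpn11 do not show a complete loss of its RNA, and Shp2 protein was not measured in these libraries. The 10 rod markers together took 4.87% to 6.35% of a retina library and 15.7% ± 0.940 (SD, n = 3) of the Het and 17.5% ± 0.676 (SD, n = 3) of the KO rod libraries. The 18 lens genes, a tissue that a dissected retina should lack, took 0.00118% to 6.58% of a retina library and at most 0.105% of a rod library.

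Mitochondrial transcripts were abundant in retina and close to absent in the rod TRAP RNA. The 13 protein genes together took 6.80%, 5.30% and 9.58% of the total in the Het retina libraries and 6.33%, 6.90% and 5.57% in the KO retina libraries. In rods their share was 0.0836%, 0.0633% and 0.0854% in Het and 0.0704%, 0.0452% and 0.0760% in KO. The lowest retina library was therefore far above the highest rod library, and Het retina replicate 3 stood highest of all. The mean was 6.75% ± 1.53 (SD, n = 6) in retina and 0.0707% ± 0.0150 (SD, n = 6) in rods, a 95.7-fold difference of geometric means. The exact two-sided permutation test over libraries gave p = 0.0022, the smallest that 6 against 6 allow (adjusted p = 0.0097 over the 18 tests of single values). With same-numbered rod and retina libraries taken as pairs (replicate block), the exact p was 0.031, the smallest that 6 pairs allow, and the adjusted p of 0.13 missed the threshold. In bulk RNA such as this, fewer cells of a type and less RNA per cell cannot be told apart. The rod libraries also passed a pull-down of tagged cytosolic ribosomes, so unlike capture of the RNA cannot be told apart from either. What part each has was not tested, and the rod libraries do not measure the mitochondrial RNA content of rod cells.

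Both RNA classes besides mRNA were lower by nearly the same factor. The 2 rRNA genes took 0.221% ± 0.0344 (SD, n = 6) of a retina library and 0.00239% ± 0.000570 (SD, n = 6) of a rod library, a 94.3-fold difference. The 22 tRNA genes took 0.00804% ± 0.00204 (SD, n = 6) of a retina library and 8.92e-05% ± 4.07e-05 (SD, n = 6) of a rod library, a 98.1-fold difference that rests on summed values of only 5 to 23 per rod library. Both differences had exact permutation p = 0.0022 and adjusted p = 0.0097, and in pairs adjusted p = 0.13. With each rod library set against the retina library of the same genotype and number, the rod share was 0.655% to 1.36% of the retina share for protein genes, 0.691% to 1.46% for rRNA genes and 0.410% to 1.89% for tRNA genes. The ratio of rRNA to protein-gene values, 3.33 per 100 ± 0.379 (SD, n = 6) in retina and 3.4 ± 0.49 (SD, n = 6) in rods, did not differ detectably (exact permutation p = 0.82).

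**Figure D1:**
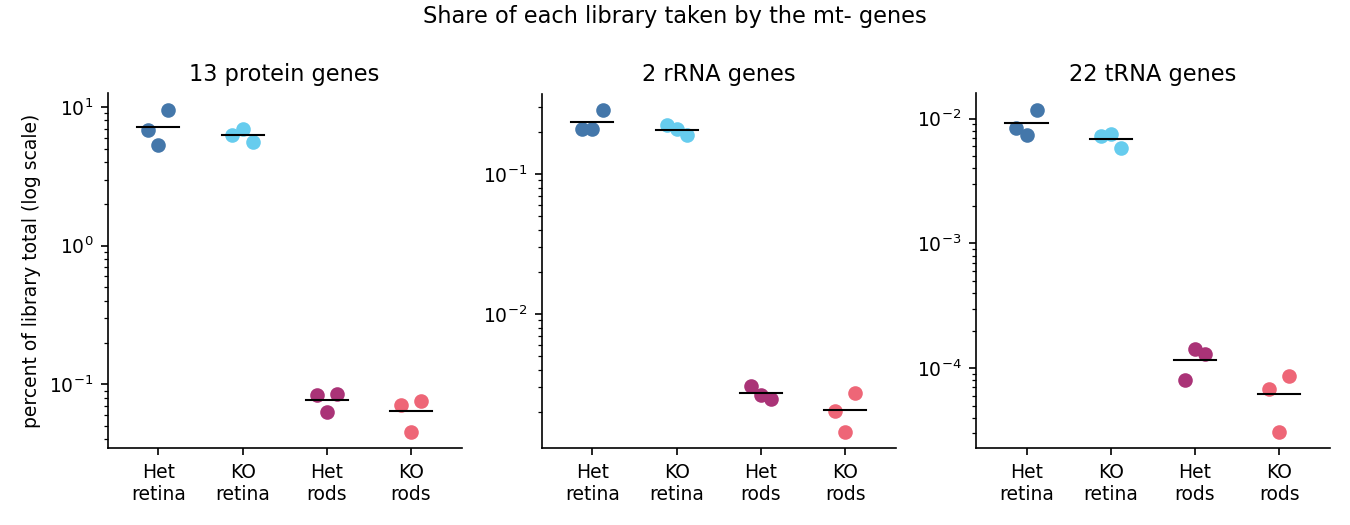
Percent of the library total (log scale) taken by the 13 protein, 2 rRNA and 22 tRNA genes of the mitochondrial genome. Points are single libraries and lines are means of 3; in each panel the retina libraries, with 5.30% to 9.58% for the protein genes, lie above the rod libraries, with 0.0452% to 0.0854%.

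The genes were then compared one at a time. Each gene was tested with limma on log2 values after TMM scaling with 2 added, and calls required both an adjusted p under 0.05 and a log2 fold change of more than 0.5 in size. The 15 protein and rRNA genes passed the filter on low values in both fractions. In Het mice all 13 protein genes and both rRNA genes were called lower in rods, against 36.8% of the 16110 genes tested (58.2% called in either direction). In KO mice all 15 were again called lower, against 36.5% of 16121 genes (62.2% in either direction). The libraries of the fractions did not overlap for any of the 15, as for 68.6% of all genes tested in Het, 72.1% in KO and 57.7% over all 12 libraries. The median log2 fold change of the protein genes was -6.15 in Het (range -6.54 to -5.63) and -6.12 in KO (range -6.45 to -5.71), while the median of all genes tested was -0.11 and -0.02.

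For complex I, the entry point for electrons from NADH, mt-Nd1 had deposited values of 80726, 67651 and 116057 in Het retina and 73983, 81458 and 65093 in KO retina. Its rod values, 1132, 942 and 1334 in Het against 965, 671 and 1155 in KO, were all far below. The log2 fold change of mt-Nd1 was -6.00 (SE 0.21) in Het and -5.96 (SE 0.20) in KO.

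Of the complex I genes, mt-Nd6 is the only protein gene among the light-strand transcripts. It had 22952, 18322 and 32894 in Het retina, 21464, 27509 and 19028 in KO retina, 306, 214 and 299 in rods of Het mice and 289, 121 and 254 in those of KO mice. Its log2 fold change between fractions was -6.22 (SE 0.23) in Het and -6.37 (SE 0.30) in KO, about as much as for the rest. The kit keeps no strand, so reads of mt-Nd6 and of heavy-strand RNA across the same bases cannot be told apart. Whether the light-strand RNA itself moved was therefore not measured. In the annotation mt-Nd6 and mt-Nd5 also share 14 bases on opposite strands.

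The complex III gene, mt-Cytb, encodes cytochrome b. It had 193264, 144308 and 260569 in Het retina, 175480, 182242 and 158418 in KO retina, 2203, 1651 and 2404 in rods of Het mice and 1975, 1178 and 2094 in those of KO mice. Rods were lower by a log2 fold change of -6.31 (SE 0.22) in Het and -6.29 (SE 0.21) in KO.

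The highest value of the 37 genes belonged to mt-Co1 in every library. It encodes the core subunit of complex IV, cytochrome c oxidase, which hands electrons to oxygen. Its values were 271492, 214168 and 403611 in Het retina, 269554, 283810 and 235276 in KO retina, 4690, 3499 and 4203 in rods of Het mice and 3603, 2498 and 3958 in those of KO mice. Rods differed from retina by -5.88 (SE 0.22) in Het and -5.94 (SE 0.18) in KO on the log2 scale, and the fall of mt-Cytb was larger in both genotypes.

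Both complex V genes, mt-Atp6 and mt-Atp8, encode membrane subunits of ATP synthase. The values of mt-Atp6 were 59141, 44929 and 82666 in Het retina, 53197, 65986 and 44344 in KO retina, 644, 476 and 658 in rods of Het mice and 533, 349 and 571 in those of KO mice. Those of mt-Atp8 were 10337, 8280 and 15231 in Het retina, 10117, 9516 and 7666 in KO retina, 102, 79 and 113 in rods of Het mice and 94, 56 and 111 in those of KO mice. They had the largest falls of the protein genes in Het and 2 of the 3 largest in KO, with log2 fold changes of -6.43 (SE 0.22) and -6.45 (SE 0.21) for mt-Atp6 and -6.54 (SE 0.23) and -6.35 (SE 0.24) for mt-Atp8 in Het and KO. The genes overlap by 43 bases in different reading frames, and reads inside the overlap belong to both. This sequence, from the GENCODE M21 transcripts, is shown because it limits how far the genes can be separated, and its capitals mark the start codon of mt-Atp6 and the stop codon of mt-Atp8.
mt-Atp8 and mt-Atp6 overlap: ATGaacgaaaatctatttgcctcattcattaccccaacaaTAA

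The 12S rRNA gene of the small mitoribosomal subunit, mt-Rnr1, had 6356, 6405 and 9404 in Het retina, 8162, 7117 and 7072 in KO retina, 72, 77 and 66 in rods of Het mice and 57, 44 and 72 in those of KO mice. The 16S rRNA gene of the large subunit, mt-Rnr2, had 24017, 24120 and 32421 in Het retina, 24359, 23145 and 20443 in KO retina, 423, 350 and 338 in rods of Het mice and 276, 190 and 371 in those of KO mice. The log2 fold change between fractions was -6.38 (SE 0.18) in Het and -6.62 (SE 0.18) in KO for mt-Rnr1 and -5.92 (SE 0.16) and -6.01 (SE 0.22) for mt-Rnr2. The other 7 protein genes, mt-Nd2, mt-Nd3, mt-Nd4, mt-Nd4l and mt-Nd5 of complex I and mt-Co2 and mt-Co3 of complex IV, ran from -6.42 (mt-Nd2) to -5.63 (mt-Nd3) in Het and from -6.28 (mt-Nd5) to -5.71 (mt-Nd3) in KO. Every limma adjusted p of the 15 genes lay between 2.1e-07 and 3.0e-07 in Het and between 3.2e-07 and 1.1e-06 in KO.

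Few other genes fell as far. Of the 16110 genes tested in Het, 67 (0.416%) were at or below the level of mt-Nd3, which fell least of the 15 protein and rRNA genes. These were the 15 genes themselves, 7 nuclear copies of mitochondrial genes described below and 45 others, among them the tRNA gene mt-Tp (-5.64). Of the 178 genes whose mean in Het retina was at least that of mt-Rnr1, only 23 fell as far, and the 1 that was neither a mitochondrial gene nor a copy was Cryab, a lens crystallin gene also made elsewhere, whose values ran from 421 to 40299 in Het retina (log2 fold change -6.00, limma adjusted p = 0.14). In KO the numbers were 35 genes (0.217%) of 16121, and 22 of 215 genes as abundant, with the lens gene Cryba1 (16505 to 126389 in KO retina) as the other. Cryab and Cryba1 were named after their values were seen.

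Nuclear genes for the respiratory complexes went the other way. The list includes 4 genes of complex II, which has no mitochondrial gene, and 3 of these were called higher in rods in both genotypes. Of 25 listed nuclear subunit genes of complexes I to V, 18 were called higher in Het rods than in Het retina and 0 lower, against 21.4% of all genes tested called higher. In KO 20 of the 25 were called higher and 0 lower, against 25.7%. Their median log2 fold change was 0.73 in Het and 0.78 in KO. The most abundant, Atp5b, the catalytic subunit of ATP synthase, had 17681, 18476 and 16341 in Het retina and 33800, 35036 and 34554 in Het rods. Sdha, the flavoprotein of complex II, had 5336, 4938 and 5014 in Het retina and 8476, 8625 and 8663 in Het rods. The rod libraries of both genes lay above every retina library, in contrast to all 15 mitochondrial genes.

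Genes that make or handle mitochondrial RNA also had medians above those of all genes tested (-0.11 in Het and -0.02 in KO). Of 13 genes for transcribing and copying the mitochondrial genome, 3 were called higher and 2 lower in rods in both genotypes, with medians of 0.07 in Het and 0.27 in KO. Of 21 genes for processing and stabilising its RNA, 6 were called higher and 0 lower in Het and 7 higher and 2 lower in KO, with medians of 0.40 and 0.41. Of all genes tested, 21.4% were called higher and 36.8% lower in Het, and 25.7% and 36.5% in KO. Lrpprc, which binds and stabilises mitochondrial mRNAs, had 1479, 2243 and 1437 in Het retina and 2413, 5191 and 2332 in Het rods.

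Most markers of retinal cells other than rods were also lower in rods, with list medians that fell by less. The median log2 fold change in Het was -4.92 for 8 Muller glia markers, -5.14 for 7 bipolar markers, -4.83 for 6 amacrine markers, -5.19 for 6 ganglion cell markers, -4.42 for the 5 microglia markers tested, -3.76 for 5 vascular markers and -1.11 for 8 cone markers. For 4 markers of the retinal pigment epithelium it was -3.15. Csf1r, the most abundant microglia marker, had 122, 218 and 113 in Het retina and 0, 6 and 4 in Het rods. No microglia marker passed the filter within rods, and 2 of 5 vascular markers did. So did 3 of 5 pigment epithelium, 4 of 6 amacrine, 5 of 6 ganglion cell, 6 of 7 bipolar and 7 of 8 Muller glia markers. With 2 added to each value, such low rod values limit how far a marker can fall. The microglia, vascular and pigment epithelium medians therefore cannot be set against those of the mitochondrial genes, and single markers of other lists share this limit. As a share of the same-numbered retina library, the summed markers kept 25.4% to 49.0% (cones), 19.9% to 31.0% (bipolar) and 4.82% to 12.4% (pigment epithelium) in rods. They kept 4.13% to 5.93% (amacrine), 2.70% to 4.55% (vascular), 2.89% to 4.51% (Muller glia) and 1.67% to 2.86% (ganglion cells). The microglia range, 0.315% to 2.16%, overlapped the 0.655% to 1.36% of the mitochondrial protein genes. Prkca, the most abundant bipolar marker, had 5929, 4174 and 5181 in Het retina and 5125, 4111 and 3721 in Het rods. It made up most of the bipolar sum in rods, and the other 6 bipolar markers were called lower in both genotypes. Slc6a9 (275, 263 and 208 in Het rods) and Pecam1 (35, 33 and 31) held a large part of the amacrine and vascular sums. Both were named after their values were seen. The bipolar, amacrine and vascular shares therefore do not show how far most markers of these lists fell. What part of the mitochondrial values in rods comes from other cells was not tested.

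**Figure D2:**
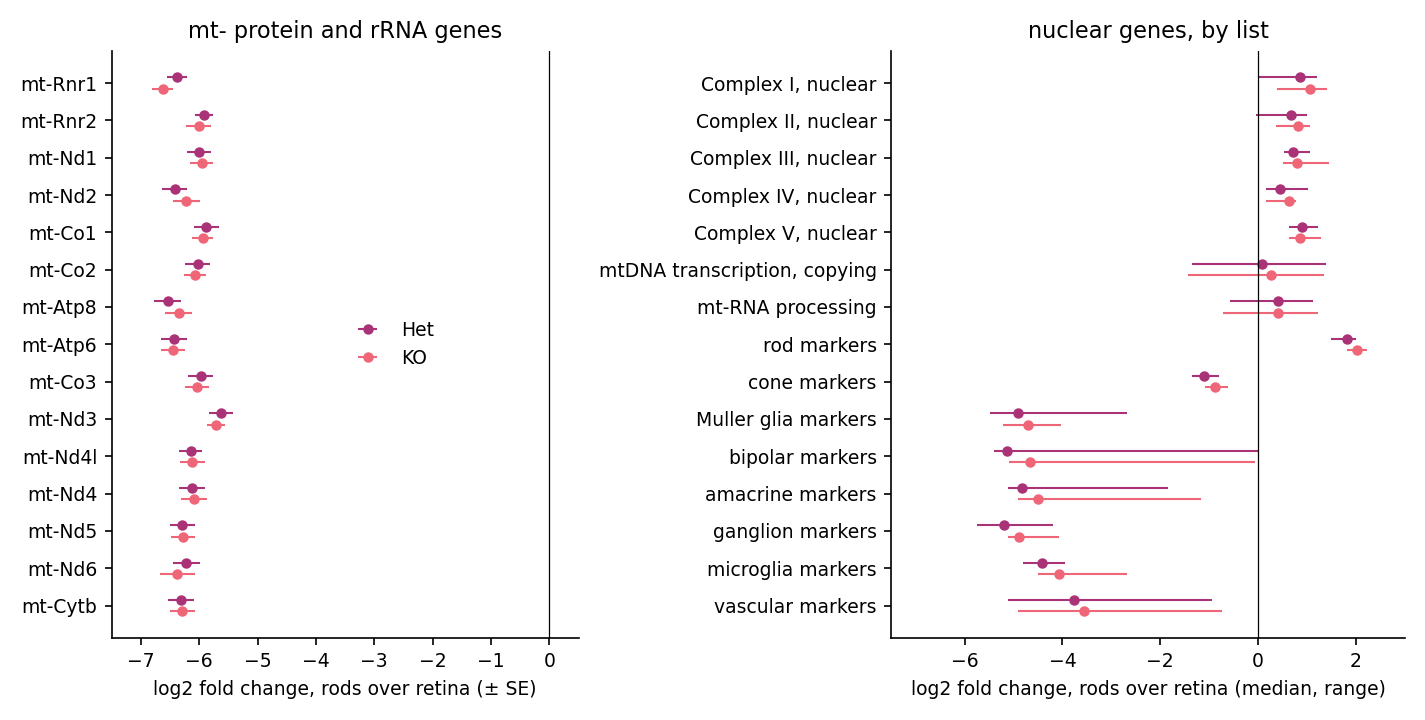
Log2 fold change of rods over retina for the mitochondrial protein and rRNA genes in genome order (left, point with SE) and for lists of nuclear genes (right, median with the range of the list). The mitochondrial genes lie between -6.62 and -5.63, the nuclear respiratory subunits above or near 0 and the plotted marker lists of other cells, cones apart, at medians of -3.57 to -5.19. The microglia and vascular lists, and some of the other marker lists, include markers with rod values too low to show their full fall.

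Levels per base were compared as the value per kilobase per 1000000 of the library total, called the length-scaled level here. The order was almost the same in both fractions. In retina mt-Co1 was highest with 12460 ± 2943 (SD, n = 6), followed by mt-Cytb with 11175 ± 2442 (SD, n = 6), and mt-Co1 was above mt-Cytb in 6 of 6 libraries although their ranges overlapped. From the next gene, mt-Co2 with 6156 ± 1280 (SD, n = 6), mt-Cytb was apart without overlap in retina. The protein genes below it ran down to mt-Nd3 with 1414 ± 351 (SD, n = 6), each neighbouring pair overlapping. In rods mt-Co1 had 149 ± 29.7 (SD, n = 6), mt-Cytb 103 ± 23.7 (SD, n = 6) and mt-Nd3 19.5 ± 3.73 (SD, n = 6).

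The rRNA genes were at the bottom of this order in both fractions, although rRNAs are the most abundant mitochondrial RNAs in cells. In retina the length-scaled level of mt-Rnr2 was 1077 ± 175 (SD, n = 6) and that of mt-Rnr1 535 ± 84.5 (SD, n = 6), and in rods they had 12.6 ± 3.16 and 4.16 ± 0.787 (SD, n = 6). The kit primes on poly(A), so these levels describe RNA with an A-rich end, and total rRNA was not measured.

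Part of the mitochondrial signal sat in other rows of the table. A stretch of chromosome 1 holds 7 pseudogenes that copy mitochondrial genes at 99.7% to 100% identity over the aligned bases. Gm28437, the copy of mt-Co3, had 57465, 44114 and 79824 in Het retina, where mt-Co3 itself had 57690, 44335 and 79934. In the 6 retina libraries the copies of mt-Co2, mt-Co3 and mt-Nd4l held 99% to 100% of the value of their mitochondrial gene, that of mt-Nd3 95.9% to 96.9% and that of mt-Atp6, Gm10925, 126% to 129%. The 2 copies that cover only part of their gene, Gm29216 (mt-Co1) and Gm28439 (mt-Nd4), held 18.0% to 20.0% and 26.9% to 30.4%.

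The copies together took 1.53% to 2.77% of a retina library and 0.0132% to 0.0258% of a rod library, and all 7 were called lower in rods, against 36.8% of all genes tested in Het and 36.5% in KO, with medians of -6.02 and -6.08. Being nearly identical in sequence and close to their genes in value, the copies give no results separate from those of the mitochondrial genes. Rows with lower identity held much less. A search of all transcripts for matches of at least 95% over 100 bases, added after the values were seen, found 4 more rows, each at no more than 1.24% of the value of its mitochondrial gene in any library. The one with the highest values, Gm13340 on chromosome 2, matches mt-Co1 at 97.6% and held 0.424% to 0.551% of its value in retina. How reads that match several places were counted is not given in the sources used here.

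With the 7 copies added to their genes, mt-Co1 stayed highest in both fractions, but mt-Atp6 moved to the second place in retina with a length-scaled level of 13462 ± 3365 (SD, n = 6) and mt-Co2 to the second place in rods with 134 ± 30.9 (SD, n = 6). Lower protein genes moved as well. In both fractions mt-Nd4l rose from place 12 to 8 and mt-Nd5 became the lowest protein gene. From place 13, mt-Nd3 rose to 12 in retina and to 9 in rods. The order among the upper genes, mt-Cytb, mt-Co2, mt-Co3 and mt-Atp6, and among the lower protein genes therefore depends on where the shared reads are placed.

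**Figure D3:**
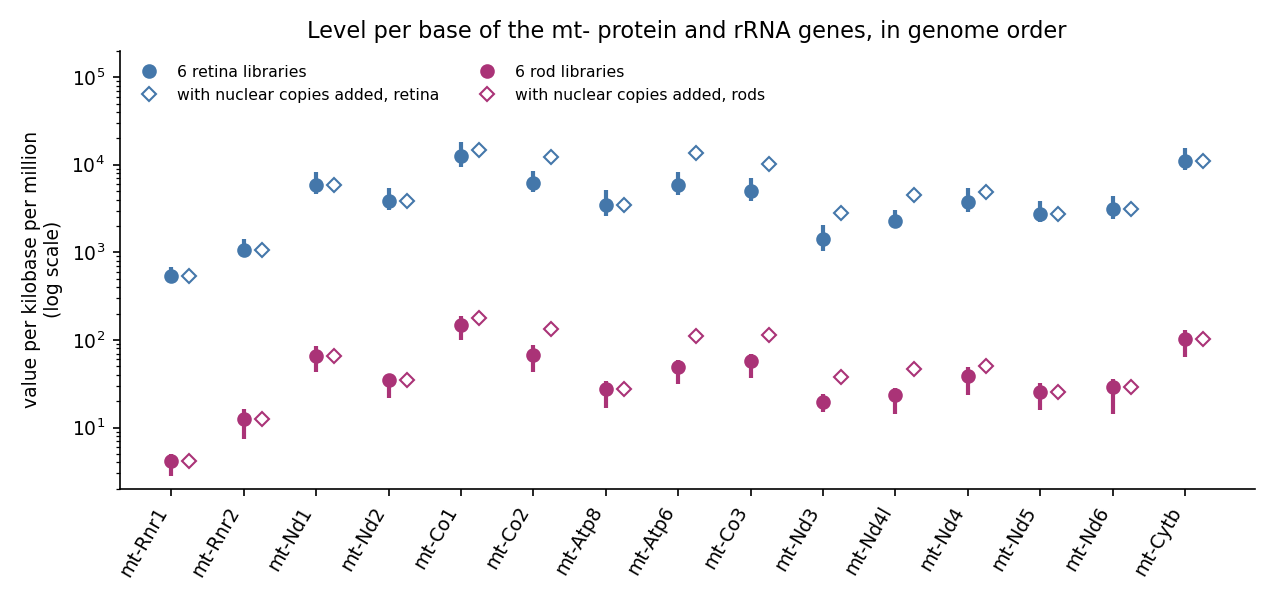
Length-scaled level (value per kilobase per 1000000 of the library total, log scale) of the protein and rRNA genes in genome order, as the mean (filled points) and range (bars) over 6 retina and 6 rod libraries. Open diamonds are means with the nuclear copies added; in both fractions mt-Co1 is highest and the rRNA genes are lowest.

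The makeup of the protein-gene signal differed slightly between fractions. As a share of the 13 genes, mt-Co1 took 28.5% (27.5% to 29.3%) in retina and 32.7% (30.2% to 34.5%) in rods, with no overlap between the 6 rod and 6 retina libraries. For 5 genes the rod libraries were all below the retina libraries. These were mt-Cytb (19.0% in retina, 16.6% in rods), mt-Atp6 (5.93% and 4.69%), mt-Atp8 (1.04% and 0.802%), mt-Nd2 (5.94% and 5.12%) and mt-Nd5 (7.41% and 6.54%). The other 7 genes overlapped. The same 6 genes stayed apart, in the same directions, when the copies were added. These shares sum to 100% in a library, so a higher share of mt-Co1 lowers the others, and they are given as a description.

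For 1 planned ratio within the mitochondrial RNAs the fractions differed by test. The ratio of mt-Rnr2 to mt-Rnr1 per base was 2.28, 2.27 and 2.08 in Het retina and 1.8, 1.96 and 1.75 in KO retina. The rod libraries had ratios of 3.55, 2.74 and 3.09 (Het) and 2.92, 2.61 and 3.11 (KO). All rod libraries were above all retina libraries, with 3.0 ± 0.33 (SD, n = 6) against 2.02 ± 0.229 (SD, n = 6), exact two-sided permutation p = 0.0022 and adjusted p = 0.0097. In pairs by replicate number the exact p was 0.031, the smallest possible, and the adjusted p of 0.13 missed the threshold. The share of mt-Nd6 in the 13 protein genes, 2.42% ± 0.162 (SD, n = 6) in retina and 2.12% ± 0.287 (SD, n = 6) in rods, had exact permutation p = 0.037 and did not pass the adjustment (adjusted p = 0.13).

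**Figure D4:**
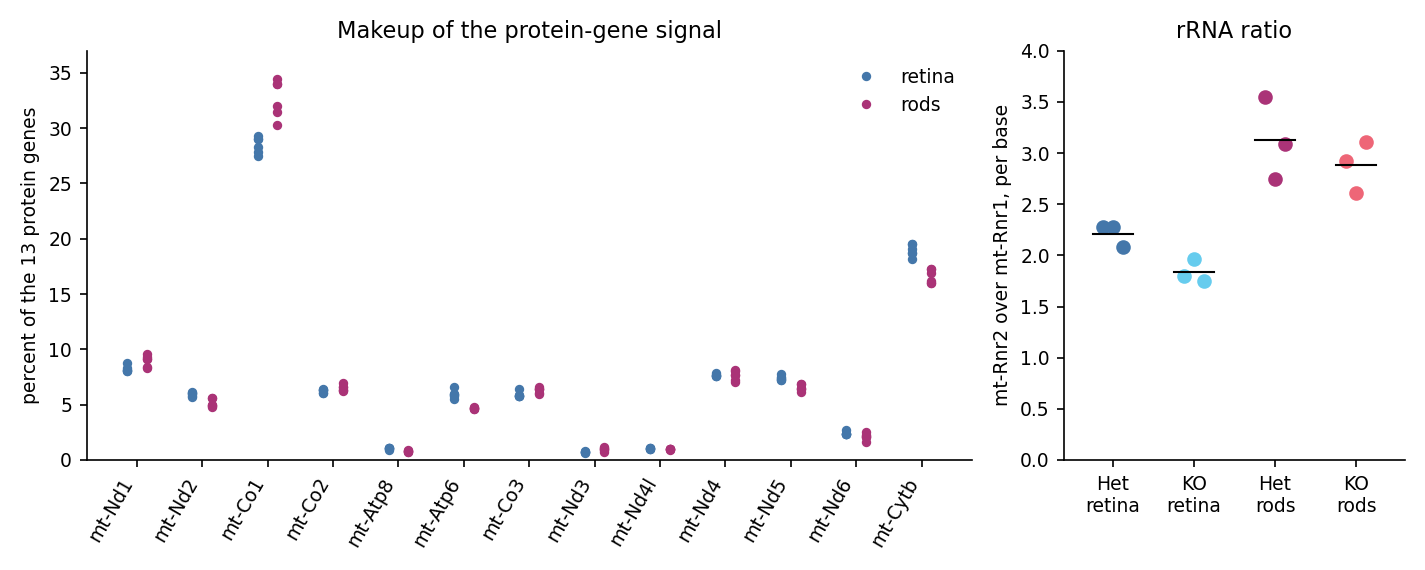
Left, percent of the summed values of the 13 protein genes taken by each gene, 1 point per library, in 6 retina and 6 rod libraries. Right, the ratio of mt-Rnr2 to mt-Rnr1 per base in each library with the mean of each group; the rod libraries lie at 2.61 to 3.55 and the retina libraries at 1.75 to 2.28.

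The 22 tRNA genes, 59 to 75 bases long, gave few reads. The kit primes on poly(A), which mature tRNAs lack. Their values summed to 840 to 1718 in a retina library. In retina 19 of the 22 were above 0 in every library, whereas in rods 2 were (mt-Tl1 and mt-Tp) and 9 were at 0 in all 6 libraries. A value of 0 in a rod library allows a share of up to 1.19e-05% to 2.52e-05% of its reads (3 reads, counting error only). Because the tRNA genes that could be tested between fractions passed the filter only through their retina values, no count of calls is given for them.

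Most of the signal came from 4 tRNA genes, which together held 75.7% to 80.4% of the tRNA values in retina. The tRNA for proline, mt-Tp, had 400, 408 and 703 in Het retina, 437, 434 and 354 in KO retina, 4, 7 and 9 in rods of Het mice and 1, 1 and 5 in those of KO mice. The tRNA for leucine at UUR codons, mt-Tl1, had 289, 230 and 324 in Het retina, 170, 159 and 146 in KO retina, 6, 5 and 1 in rods of Het mice and 3, 3 and 2 in those of KO mice. In both cases every retina library was far above every rod library.

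The tRNA for methionine, mt-Tm, had 191, 172 and 242 in Het retina, 141, 166 and 112 in KO retina, 2, 2 and 2 in rods of Het mice and 3, 0 and 3 in those of KO mice. The tRNA for glutamate, mt-Te, had 76, 62 and 111 in Het retina, 68, 66 and 54 in KO retina, 0, 0 and 4 in rods of Het mice and 0, 0 and 1 in those of KO mice. The other 18 tRNA genes reached at most 100 in a retina library and 4 in a rod library, both in mt-Tn, the tRNA for asparagine, named after its values were seen. Among them mt-Tf, the tRNA for phenylalanine at the start of the heavy-strand genes, was at 0 in all 12 libraries.

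These 4 genes and mt-Tf are shown because they are the extremes of the class. The sequences are whole genes from the GENCODE M21 transcripts, read on the transcript strand, with the anticodon in capitals.
mt-Tp: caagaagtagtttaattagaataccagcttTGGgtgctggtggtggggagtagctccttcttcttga
mt-Tl1: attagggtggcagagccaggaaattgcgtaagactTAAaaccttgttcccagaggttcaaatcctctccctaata
mt-Tm: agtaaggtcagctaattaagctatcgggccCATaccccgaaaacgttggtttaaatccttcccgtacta
mt-Te: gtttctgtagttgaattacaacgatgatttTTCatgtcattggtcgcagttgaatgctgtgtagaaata
mt-Tf: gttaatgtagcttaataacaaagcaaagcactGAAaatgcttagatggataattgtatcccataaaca

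The tRNA values were small beside those of the neighbouring genes. In retina mt-Tl1, which lies between mt-Rnr2 and mt-Nd1, had a length-scaled level of 202, or 18.7% of the level of mt-Rnr2. The level of mt-Tp was 4.19% of that of mt-Cytb, and mt-Tm had 4.4% of the level of mt-Nd2. For the other 19 genes the level was at most 2.31% of that of the lower flanking protein or rRNA gene. The 8 light-strand tRNA genes, mt-Tp and mt-Te among them, held 52.3% to 61.5% of the tRNA values in retina. Without strand, reads of a light-strand tRNA and those of heavy-strand RNA across the same bases cannot be told apart.

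KO was compared with Het next, within each fraction. In rods 0 of the 15 protein and rRNA genes were called in KO against Het by limma, against 13.1% of the 13055 genes tested (11.2% higher and 1.91% lower), and 0 of the 15 had an unadjusted p under 0.05. All 15 had lower means in KO rods, with log2 fold changes of -0.37 to -0.06 (median -0.23, SE 0.16 to 0.33, adjusted p 0.14 to 0.88). The groups overlapped for all but mt-Nd3, a complex I gene named after its values were seen, with 134, 111 and 136 in rods of Het mice and 104, 86 and 91 in those of KO mice (log2 fold change -0.35, SE 0.16, limma adjusted p = 0.14), while 44% of all genes tested did not overlap. None of the tRNA genes passed the filter in rods. The summed share of the 13 protein genes was 0.0639% ± 0.0164 (SD, n = 3) in KO rods against 0.0774% ± 0.0123 (SD, n = 3) in Het rods, with exact two-sided permutation p = 0.40, where 3 against 3 cannot go below 0.10.

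The direction in rods moved with a trend in GC content, whose part in the difference was not tested beyond the removal below. The protein genes have 31.9% to 41.1% GC, while 41.6% is the upper limit of the lowest decile of genes tested. As a GC trend, the median log2 deviation of the decile of genes with the highest GC minus that of the lowest was -0.81, -0.23 and -0.42 in the Het and 0.42, 0.76 and 0.28 in the KO rod libraries, so that the genotypes did not overlap in this trend. With the trend removed from each library, the 15 log2 fold changes were all above 0 (0.01 to 0.32, median 0.14, adjusted p 0.36 to 0.97, 0 called). The removal held GC within a lower and an upper limit, and most of the 15 genes lie below the lower limit. Those genes received the same upward shift, so the 15 changes of sign are not separate results. Without KO rods replicate 2, the library with the lowest mitochondrial share, the median was -0.03. Without KO rods replicate 3 a single gene was called, mt-Rnr2, at -0.57 (limma adjusted p = 0.029).

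In whole retina the mitochondrial genes were not called either. Of 27 members tested, 0 passed the threshold in KO retina against Het retina by limma, as did 0 of all 16863 genes tested (0%), and at an unadjusted p under 0.05 there were 2 members and 140 genes. The log2 fold change of the 15 protein and rRNA genes was -0.27 to 0.04 (median -0.18, SE 0.17 to 0.25). The sign of the median rested on Het retina replicate 3, which had the highest mitochondrial share, and without it the median was 0.05. That library also had the strongest GC trend towards low GC, -0.84, in a set where the trend ran from -0.84 to 0.90 and overlapped between genotypes. The share of the protein genes was 7.23% ± 2.17 (SD, n = 3) in Het and 6.27% ± 0.667 (SD, n = 3) in KO retina (exact permutation p = 0.70).

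A few tRNA and rRNA values separated the genotypes in retina without passing a test. The Het libraries of mt-Tl1 were all above the KO libraries in the values given above (log2 fold change -0.80, SE 0.19, unadjusted p = 0.0036, limma adjusted p = 1.0), as were those of mt-Tm (-0.52, SE 0.23). The third was mt-Tl2, the leucine tRNA for CUN codons, with 18, 15 and 25 in Het and 12, 3 and 6 in KO retina (-1.34, SE 0.44), values near the filter that it passed mostly through Het; it was named after its values were seen. Among all genes tested 3.52% did not overlap. The ratio of mt-Rnr2 to mt-Rnr1 was also lower in all KO than in all Het retina libraries, 1.84 ± 0.113 (SD, n = 3) against 2.21 ± 0.113 (SD, n = 3), with exact permutation p = 0.10, the smallest 3 against 3 allow (adjusted p = 0.30). In rods that ratio overlapped, at 2.88 ± 0.255 (SD, n = 3) for KO and 3.13 ± 0.402 (SD, n = 3) for Het (exact permutation p = 0.50).

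The KO effect in rods did not differ detectably from that in retina for any member. The interaction of genotype and fraction over all 12 libraries called 0 of 28 members tested and 0 of 17192 genes (0%), and 1 member, mt-Tl2, had an unadjusted p under 0.05.

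**Figure D5:**
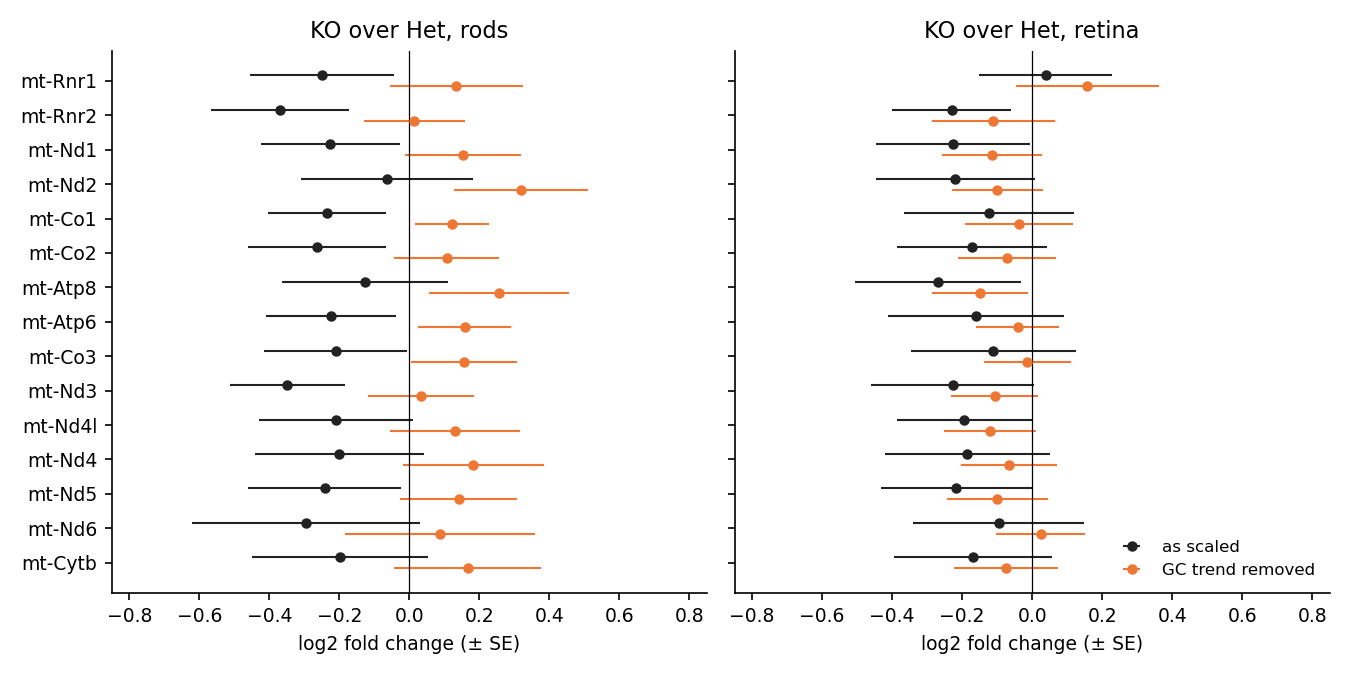
Log2 fold change of KO over Het (point with SE) for the 15 protein and rRNA genes in rods (left) and retina (right), as scaled and with the GC trend of each library removed. In rods the values run from -0.37 to -0.06 as scaled and from 0.01 to 0.32 with the trend removed, and none of them was called.

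Of the nuclear genes listed, a few were called in KO rods, where 11.2% of all genes tested were called higher and 1.91% lower. Polrmt, the RNA polymerase that transcribes it, had 70, 132 and 101 in rods of Het mice and 215, 335 and 216 in those of KO mice, with no overlap. Its log2 fold change was 1.42 (SE 0.26, limma adjusted p = 0.0071), and 0.70 with the GC trend removed (adjusted p = 0.021). Ndufs7, a core subunit of complex I, had 121, 204 and 157 in rods of Het mice and 343, 553 and 318 in those of KO mice, a log2 fold change of 1.39 (SE 0.27, limma adjusted p = 0.011) and of 0.75 with the trend removed (adjusted p = 0.013). Both were called under all 16 alternatives tried. Their transcripts are rich in GC, at 60.9% for Polrmt and 59.6% for Ndufs7, and their retina values overlapped between genotypes (log2 fold changes 0.03 and 0.34, limma adjusted p = 1.0).

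Of the 13 genes for transcribing and copying the mitochondrial genome, 1 was called higher (Polrmt) and 1 lower in KO rods, against 11.2% and 1.91% of all genes tested. The lower was Polg2, the accessory subunit of the mitochondrial DNA polymerase, with 1642, 1819 and 1660 in rods of Het mice and 1026, 1021 and 1406 in those of KO mice (log2 fold change -0.50, limma adjusted p = 0.0084, and -0.61 with the GC trend removed, adjusted p = 0.0055). It lost its call in 6 of the 16 alternatives, with a range of -0.63 to -0.42, and its value of -0.50 lies at the limit for a call.

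Of the 21 RNA processing genes, 3 were called higher in KO rods and 0 lower, against 11.2% and 1.91% of all genes tested. Fastk had a log2 fold change of 0.79, Ptcd1 of 0.71 and Tbrg4 of 0.54. All 3 belong to families of RNA-binding proteins of mitochondria, and with the GC trend removed none was called, at 0.34, 0.32 and 0.08.

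Of the 25 nuclear respiratory subunits, 4 were called higher and 0 lower in KO rods (median log2 fold change 0.04). Besides Ndufs7 they were the complex I subunits Ndufs8 (0.69) and Ndufv1 (0.58) and the complex IV subunit Cox4i1 (0.68). With the GC trend removed, Ndufs8 was at 0.41, Ndufv1 at 0.15 and Cox4i1 at 0.15, and none of the 3 was called. Their share of calls, 4 of 25, lay near the 11.2% of all genes called higher.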

How the data were processed

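RNA sequencing libraries were grouped by the genotype and fraction in their labels. The authors deposited 1 table, whose values have the properties of a scaled signal: whole numbers with nearly equal totals within a fraction, fitted as read counts times 1 factor per library (0.644 to 1.46). How that scaling and the placing of reads matching several genes were done is not given in the sources used here. The submitters' processing notes name GRCm39, CASAVA 1.8.2, HISAT2, DESeq2 and edgeR without their roles.

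The fits used limma 3.58.1 in R 4.3.3 (trended, robust) on log2 of TMM-scaled values plus 2, for genes at about 10 or more in 3 of the libraries compared and with a sum of 15 or more, with Benjamini-Hochberg adjustment over all genes tested. Sums and ratios were tested by exact two-sided permutation over libraries, with adjustment over 18 tests. On simulated data with 200 genes changed by a log2 of 1, the fit recovered 85.5% (KO rods against Het rods, 13026 genes) and 81% (KO retina against Het retina, 16896 genes), and 2.29% and 6.36% of the calls were false. Lengths, strands, sequences and GC come from GENCODE M21 on GRCm38, matched by Ensembl ID (37 of 37 members), so no coordinates are given. Copies were aligned with blastn 2.17.0. Python 3.11.15 was used with NumPy 2.4.6, pandas 2.3.3 and matplotlib 3.10.9. Intervals and floors cover counting error only.

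Named are the members, the most abundant or called genes of each list and those said to be chosen later. The members and lists were chosen with earlier results of these data known. Same-numbered Het rods and Het retina deviated together across genes (r = 0.43, 0.38 and 0.24), so the numbers pair them, as a hint from the values. Alternatives covered scaling, pseudocount, filter, Bayes options, GC trend, replicate block, lens genes, nuclear copies, denominators and each library left out.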

Additional observations from a re-analysis of the deposited data

How the results depend on the processing

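All 15 protein and rRNA genes were called lower in rods under every alternative of both genotypes, against 36.8% and 36.5% of all genes tested. With 1 library left out, the calls ranged from these 15 to 27 in Het and to 26 in KO. The calls beyond the 15 are tRNA genes that passed the filter only through retina and support nothing, and without a retina library none of them passed it. Scaling to the library total alone moved the median of the 15 genes to -6.56 and -6.65, with the median of all genes at -0.51 and -0.55. In pairs by replicate number (replicate block), the log2 differences in share stayed -6.58 for protein, -6.56 for rRNA and -6.62 for tRNA genes and 0.57 for the mt-Rnr2 to mt-Rnr1 ratio. Each had exact p = 0.031, the smallest 6 pairs allow (adjusted p = 0.13). The block changed no call of a member in the fits. Same-numbered libraries of the other comparisons correlated at 0.31, 0.024 and 0.20 (KO rods and retina), 0.095, 0.016 and 0.043 (rods) and 0.39, -0.58 and -0.15 (retina), which gives no clear pairing. The block in the fits still used all these numbers. The exact test of 6 pairs used those of KO rods and retina together with Het, so it rests on an assumed pairing in KO.

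With 1 library left out, the calls in KO rods against Het rods were 0 to 1, as given for mt-Rnr2, and those in retina 0 to 0. The log2 difference in mt-Nd6 share between fractions was -0.25 to -0.13, and passed without KO rods replicate 1 (exact permutation, adjusted p = 0.0078). Signs turned for the protein share in KO against Het retina (-0.37 to 0.056), the rRNA to protein ratio between fractions (-0.038 to 0.074) and between genotypes in retina (-0.076 to 0.12), and the mt-Nd6 share between genotypes in rods (-0.23 to 0.077) and retina (-0.0073 to 0.11). In KO rods against Het rods they turned for mt-Nd6 (-0.53 to 0.062), mt-Cytb (-0.36 to 0.037) and mt-Atp8 (-0.30 to 0.13). In retina they turned for mt-Rnr1 (-0.075 to 0.24), mt-Nd1 (-0.39 to 0.0074), mt-Nd6 (-0.29 to 0.15), mt-Cytb (-0.38 to 0.062), mt-Co1 (-0.33 to 0.14), mt-Atp6 (-0.37 to 0.083) and mt-Tp (-0.41 to 0.030). None of these values was called.

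With the GC trend removed, alone or with the replicate block, KO rods against Het rods had 0.13 for mt-Rnr1, 0.014 for mt-Rnr2, 0.15 for mt-Nd1, 0.088 for mt-Nd6, 0.17 for mt-Cytb, 0.12 for mt-Co1, 0.16 for mt-Atp6, 0.26 for mt-Atp8 and 0.034 for mt-Nd3, and retina had 0.024 for mt-Nd6. Genes called in KO rods over the whole table numbered 1710, against 372 with the trend removed, 444 with the block as well, 922 without robust and trended moderation, 887 without Het rods replicate 1 and 1100 without KO rods replicate 2. The cause was not tested. Rod tRNA values of 0 to 9 allow no comparison of single tRNAs between genotypes there.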
